A study of Rattus norvegicus with 12 samples.

Results

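The third ventricle of the hypothalamus is lined by ciliated ependymal cells and, beside the arcuate nucleus (ARC), by tanycytes, and 9 genes of this lining and of local thyroid hormone handling were followed in the ARC of recuperated and control rats. They were chosen by gene symbol: Vim, Nes and Foxj1 for the lining, Crym, Slco1c1 and Ttr for binding and transport of the hormone, Dio2 for its activation, and Thra and Thrb for its nuclear receptors. On the Affymetrix rat genome array used, 14 of 31042 probe sets that are not controls carried 1 of these symbols alone. On these arrays several short probes that target the same transcript are read together as a probe set. Every one of the 14 is described, and each gene is represented by its brightest probe set over the 12 arrays unless stated otherwise. Brightness depends on the probes, so levels of different probe sets cannot be set against each other. One further probe set, which names Ttr together with another gene, was not used.

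Recuperated rats (n = 6 arrays) were male Wistar offspring of dams given an 8% protein diet during pregnancy, and were moved to control dams on postnatal day 3. Control rats (n = 6 arrays) were male Wistar offspring of control dams and were suckled by control dams. For both groups postnatal day 3 is recorded as the day of fostering. Both groups ate standard chow after weaning and were 3 months old when brains were collected. Recuperated litters were reduced to fewer pups, all male, whereas control litters kept both sexes, so maternal diet, litter size and litter composition differ together between the groups. Each array held the laser-captured ARC of 1 animal, cut from sections stained with Cresyl Violet, and its RNA was amplified before labelling. The capture outlined a nucleus and not a cell type, so the ventricle lining entered only as far as the cut included it. Values are deposited log2 expression values made with RMA (robust multi-array averaging, in which background is removed, the arrays are brought to a common distribution and probes are combined), and the medians of the 12 arrays lay between 6.21 and 6.30.

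Tanycytes are elongated glial cells whose processes run from the ventricle wall towards the ARC and the median eminence, and they contain the intermediate filament proteins vimentin and nestin. In the rodent hypothalamus they are a main site of type 2 deiodinase, the enzyme encoded by Dio2, which turns the prohormone thyroxine (T4) into active triiodothyronine (T3). T4 reaches these cells through carriers such as OATP1C1, encoded by Slco1c1, and T3 acts in neighbouring cells on the nuclear receptors encoded by Thra and Thrb.

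To show what lies before the start sites of genes on which the comparisons below turn, the 250 bases upstream of the start of Vim, Nes and Thrb are given 5′ to 3′ from the RefSeq promoter table on build GRCr8. The Vim stretch is chr17:81577011-81577260 on the plus strand, that of Nes is chr2:175736338-175736587 on the plus strand, and that of Thrb is chr15:10461447-10461696 on the minus strand. The arrays measured no binding or methylation at these positions. Capitals mark the letters of 4 motifs on either strand, the nuclear receptor half-site AGGTCA, the TATA box letters TATAAA, the CAAT box letters CCAAT and the GC box GGGCGG.
Vim: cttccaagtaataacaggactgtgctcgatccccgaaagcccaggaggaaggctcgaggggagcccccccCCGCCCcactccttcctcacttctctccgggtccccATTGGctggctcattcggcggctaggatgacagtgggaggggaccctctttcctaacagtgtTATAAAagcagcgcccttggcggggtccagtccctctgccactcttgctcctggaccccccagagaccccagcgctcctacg
Nes: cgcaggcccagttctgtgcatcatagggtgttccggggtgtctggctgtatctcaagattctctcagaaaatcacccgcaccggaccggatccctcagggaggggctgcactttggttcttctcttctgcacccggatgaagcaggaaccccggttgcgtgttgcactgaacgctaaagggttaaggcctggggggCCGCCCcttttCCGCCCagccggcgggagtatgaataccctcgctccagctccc
Thrb: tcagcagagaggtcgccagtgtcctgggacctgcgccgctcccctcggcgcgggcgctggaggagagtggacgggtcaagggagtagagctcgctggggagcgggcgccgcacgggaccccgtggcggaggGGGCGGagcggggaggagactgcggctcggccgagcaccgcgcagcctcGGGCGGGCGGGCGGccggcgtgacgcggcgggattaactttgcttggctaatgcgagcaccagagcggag
The table held 7 promoters of 6 members, Dio2, Nes, Thra (2 starts), Thrb, Ttr and Vim. AGGTCA occurred in 0 of the 7 stretches and in 14.1% of all 33469 promoters of the same length. The Vim stretch held all of the other motifs. TATAAA was also found in Dio2, and in 12.9% of all promoters, and CCAAT was found in no other member's stretch and in 34% of all promoters. GGGCGG was found in Nes, 1 of the 2 starts of Thra, Thrb and Vim, and in 30.5% of all promoters, and in Thrb 3 of its 4 copies overlap each other.

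None of the 9 genes differed between recuperated and control ARC at an adjusted p under 0.05 (limma, Benjamini-Hochberg over 31042 probe sets, smallest adjusted p = 0.999). This held for 0 of the 14 probe sets, beside 0% of all probe sets. At the threshold of at least 1.3-fold with an unadjusted limma p under 0.05, again 0 of 14 passed, beside 2.47% of all probe sets (766 of 31042). At an unadjusted limma p under 0.05 with no fold threshold the count was 0 of 14, beside 3.45%. With the methods' t-test it was 1 of 14, beside 1063 of all 31042 probe sets. The median log2 fold change over the 9 genes was -0.19, with 3 positive and 6 negative values. Over the brightest probe sets of all 14217 genes the median was -0.04 and 39.8% of the values were positive. This share is the background for the sign counts over all 12 arrays given below. It was not computed without recuperated array 4, so sign counts without that array have no such background. Without recuperated array 4 the median over the 9 genes was 0.12, with 6 positive and 3 negative values. Without recuperated array 2 it was 0.02, so leaving out either of these arrays turned its sign. Over all arrays, and again without recuperated array 4, this median was the value of Ttr, whose SE over all arrays was 1.03. The plot of the members by array shows the spread behind these values.

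**Figure D1:**
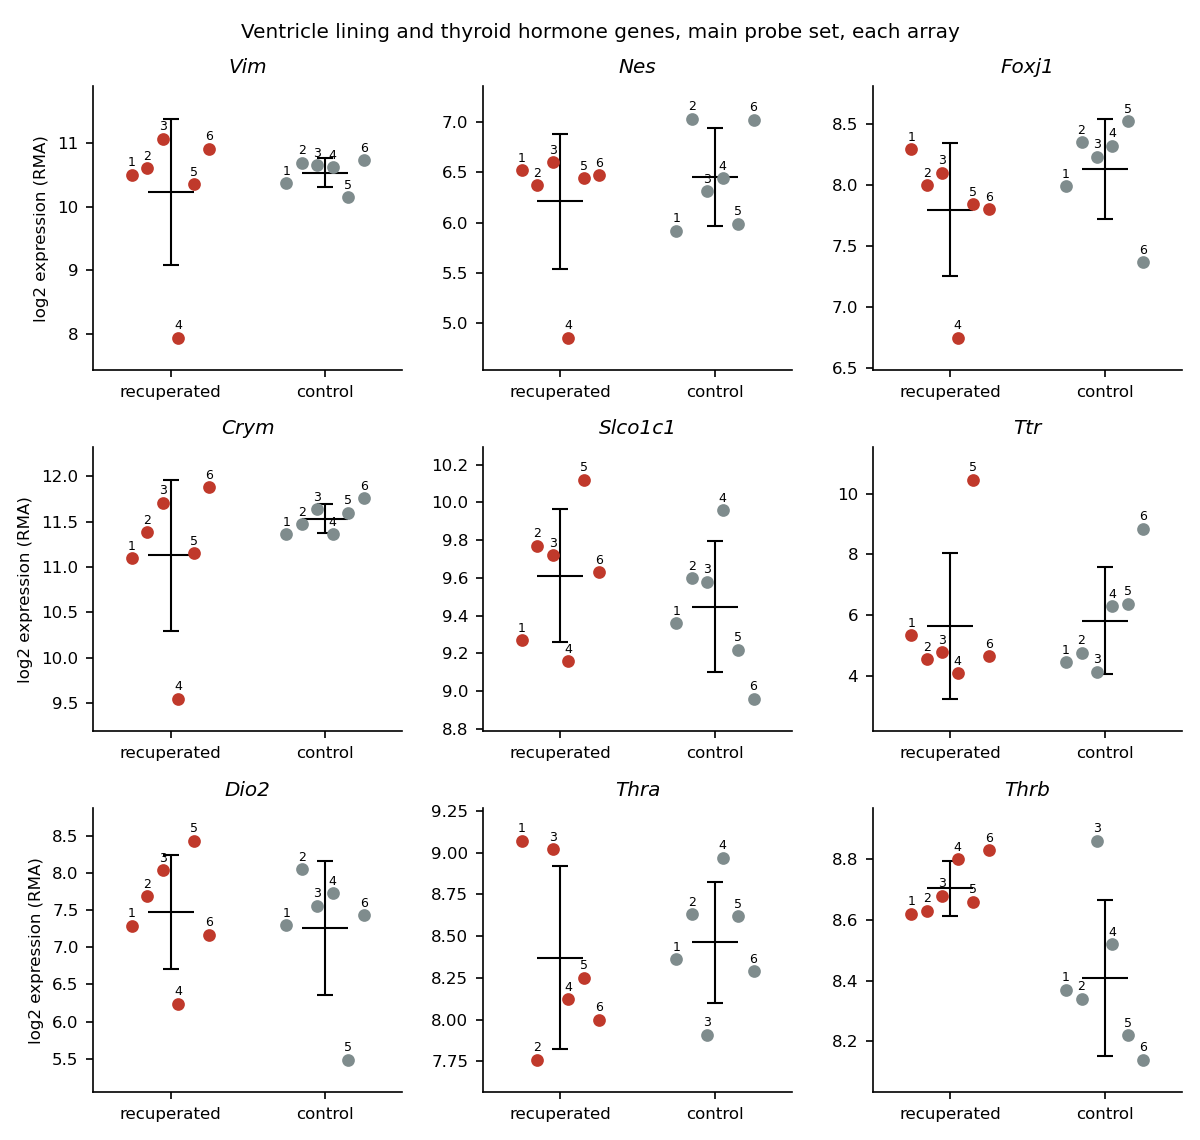
Log2 expression (RMA) of the main probe set of each of the 9 genes, with 1 numbered point per array, recuperated left and control right, and the group mean ± SD in black (n = 6 each). The vertical axes differ between panels. Recuperated array 4 lies lowest for Vim, Nes, Foxj1, Crym and Ttr, and recuperated Thrb values lie in a narrow band from 8.62 to 8.83.

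Genes of the ventricle lining showed no group difference beyond their spread, and in each of them a single recuperated array set the sign or the size of the difference. Vim, the intermediate filament vimentin of tanycytes and other glia, had a lowest, median and highest level of 7.94, 10.55 and 11.07 in recuperated arrays, against 10.15, 10.64 and 10.73 in control arrays. Recuperated array 4 was the low one, and the other 5 recuperated arrays lay between 10.35 and 11.07, over the range of the controls and above it. Vim averaged 10.23 ± 1.15 in recuperated and 10.54 ± 0.23 in control arrays (log2, SD, n = 6 each). The log2 fold change was -0.33 (SE 0.42, 95% interval -1.22 to 0.56, two-sided exact permutation p = 0.792). Without recuperated array 4 it was 0.13 (SE 0.16). In bulk tissue, fewer cells of a type and less RNA per cell cannot be told apart, here or for the genes that follow.

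Nes, the intermediate filament nestin of neural progenitors and tanycytes, ran from 4.86 through a median of 6.46 to 6.60 in recuperated arrays, against 5.92, 6.38 and 7.03 in control arrays. Apart from array 4, recuperated levels lay within 6.37 to 6.60 (SD 0.09), inside the wider control range (SD 0.48). The log2 fold change was -0.26 (SE 0.30, exact permutation p = 0.539) over all arrays and 0.01 (SE 0.21) without recuperated array 4. Foxj1, the transcription factor that motile cilia of the ependyma depend on, reached 6.75, 7.92 and 8.29 (lowest, median and highest) in recuperated arrays, against 7.37, 8.28 and 8.52 in control arrays. The groups overlapped, with 1 of 6 recuperated arrays above the control median. Its log2 fold change of -0.35 (SE 0.25, exact permutation p = 0.253) was -0.14 (SE 0.19) without recuperated array 4 and -0.50 (exact permutation p = 0.0346) without control array 6, the low one among the controls. Control array 6 ran against the group difference, and with each array left out in turn this was the only 1 of 12 exact p values under 0.05.

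Of the 9 genes, 5 had their lowest level of all 12 arrays on recuperated array 4 (Vim, Crym, Foxj1, Nes and Ttr), beside 13.7% of all probe sets. Against the median of the other 11 arrays, that array was lower by at least 1 log2 unit for 5 genes, beside 2.28% of all probe sets: the difference was -2.68 for Vim, -1.92 for Crym, -1.58 for Nes, -1.35 for Foxj1 and -1.32 for Dio2. It was -0.44 for Slco1c1 and -0.69 for Ttr. The receptors stood otherwise, at -0.24 for the main probe set of Thra and 0.18 for that of Thrb, and 3 of the 14 probe sets, 1 of Thra and 2 of Thrb, were highest on this array, beside 14.1% of all probe sets. The same array was low for other genes of the lining, as the plot of the cell type lists shows.

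**Figure D2:**
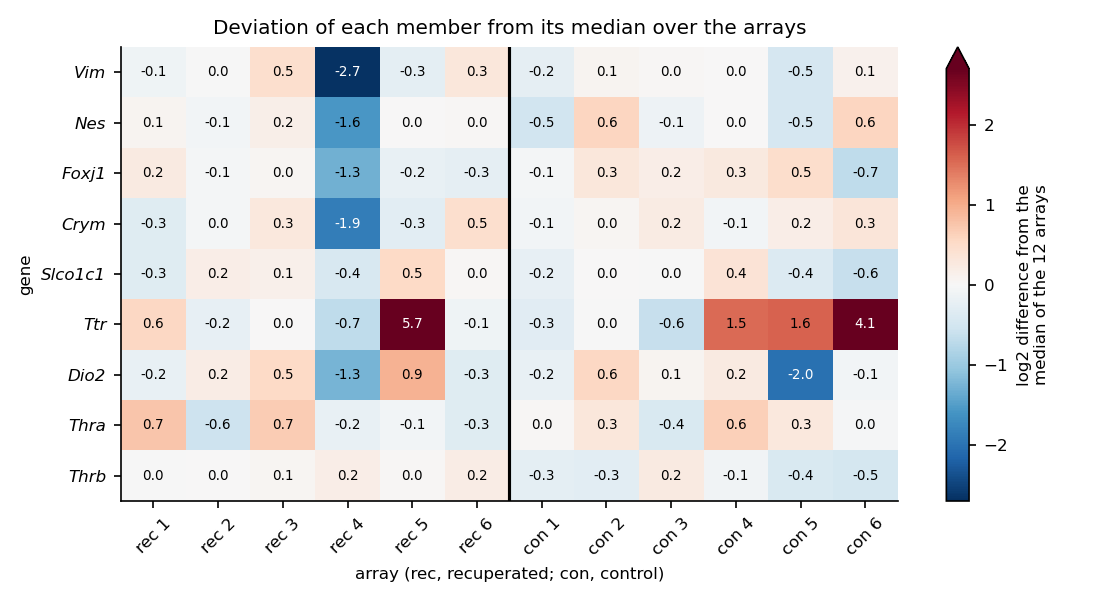
Difference of each member's log2 level on each array from its median over the 12 arrays (colour and printed number), recuperated arrays left of the line and control arrays right of it, colours ending at 2.7 log2 units. The column of recuperated array 4 is blue for the lining genes, Crym and Dio2 and near white for Thra and Thrb, and Ttr departs most on recuperated array 5 and control array 6.

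Tanycyte genes other than the members, a list of 27 of which 24 were measured, had a mean level of 1.15 log2 units above the array median on recuperated array 4, against 1.70 to 1.89 on the other 11 arrays. Their lowest value fell on this array for 12 of 24 genes and their highest for 5. Rax, a transcription factor that marks tanycytes, read 3.89 there and 5.40 to 6.95 elsewhere. Frzb, a secreted Wnt antagonist, read 5.66 there and 8.78 to 10.06 elsewhere. The 5 genes highest there were Slit2, Deptor, Col25a1, Mest and Nkx2-1. Deptor read 10.58 there and 9.09 to 10.01 elsewhere, and Col25a1 read 11.52 there and 10.36 to 11.09 elsewhere. Mest read 8.70 there and 7.47 to 8.39 elsewhere. Genes of ependyma and motile cilia, 23 of 40 measured, averaged 0.07 on that array and 0.87 to 1.22 on the others, with 16 of 23 lowest there. Dynlrb2, a dynein light chain of cilia, read 4.62 there and 7.69 to 8.85 elsewhere. Markers of ARC neurons were lower too, at 0.84 against 2.36 to 2.60 on the other arrays (13 of 16 lowest there). Markers of the ventromedial nucleus (VMN), which lies above the ARC, were higher, at 2.53 against 0.53 to 1.43. Of the 11 VMN genes 7 were measured, with 5 highest and 1 lowest there. The lowest was Dlk1, at 7.55 against 8.61 to 9.76 elsewhere. Astrocyte genes were lowest there too, at 4.60 against 4.63 to 4.86, as were genes of the pars tuberalis and pituitary, at -1.91 against -1.55 to -0.15. Genes of neurons in general were highest there, at 4.68 against 4.29 to 4.55. Which of these lists had a part in the low Vim, Nes, Foxj1, Crym and Dio2 values was not tested.

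**Figure D3:**
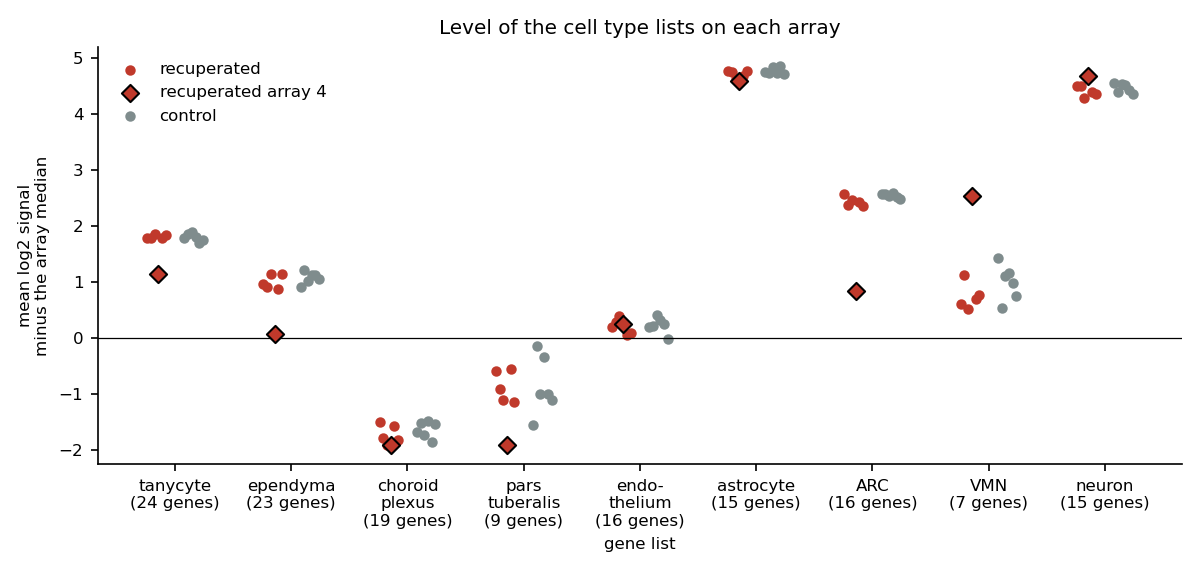
Mean log2 signal of each cell type list above the array median, 1 point per array, recuperated left and control right within each list, with recuperated array 4 as an outlined diamond. On that array the tanycyte, ependyma, pars tuberalis, astrocyte and ARC lists lie below all other arrays, and the VMN and neuron lists lie above them.

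Between the groups, 9 of 24 tanycyte genes had a positive and 15 a negative log2 fold change, with a median of -0.04, and 0 passed 1.3-fold with p under 0.05 or an adjusted p. With recuperated array 4 left out, 13 were positive, 11 were negative and the median was 0.01. The 3 with the smallest limma p were Adm, the vasodilator peptide adrenomedullin (-0.21, SE 0.14), Slit2, an axon guidance protein (0.47, SE 0.32, with 0.22 and -0.08 on its other probe sets), and Scn7a, a sodium channel of circumventricular glia (-0.89, SE 0.61). Ependymal genes leaned one way, with 2 of 23 positive, 21 negative and a median of -0.17, beside 39.8% positive over all genes. Of these ependymal genes, 0 passed either threshold. Without recuperated array 4, 9 were positive, 14 were negative and the median was -0.05. Dynlrb2 (-0.91, SE 0.53), Tekt1, a tektin of the ciliary axoneme (-0.26, SE 0.15), and Ak7, an adenylate kinase of motile cilia (-0.70, SE 0.44), had the smallest p values of this list, between 0.107 and 0.138 in limma.

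Crym, Slco1c1 and Ttr, the binding and transport members, likewise gave no difference beyond the spread between arrays. Crym encodes mu-crystallin, which binds T3 in the cytoplasm, and read 9.55, 11.27 and 11.88 (lowest, median and highest) in recuperated arrays, against 11.36, 11.54 and 11.76 in control arrays. Control levels were tight (SD 0.16), while 3 of 6 recuperated arrays fell below all controls and 1 lay above them. The log2 fold change was -0.42 (SE 0.31, 95% interval -1.08 to 0.23, exact permutation p = 0.255), and without recuperated array 4 it was -0.11 (SE 0.16).

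Slco1c1, whose product OATP1C1 carries T4 into endothelium and glia of the brain, read 9.16, 9.68 and 10.12 in recuperated arrays, against 8.96, 9.47 and 9.96 in control arrays. Recuperated and control values overlapped over nearly their whole range, with 4 of 6 recuperated arrays above the control median. The mean was 9.61 ± 0.35 in recuperated and 9.45 ± 0.35 in control arrays (SD, n = 6 each), a log2 fold change of 0.15 (SE 0.19, 95% interval -0.27 to 0.56, exact permutation p = 0.483). The 16 measured endothelial genes had a mean level of 0.05 to 0.40 log2 units above the array median in recuperated arrays and -0.01 to 0.40 in control arrays.

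Ttr encodes transthyretin, the T4 carrier that the choroid plexus secretes into cerebrospinal fluid, and it varied more than any other member. Its levels were 5.34, 4.56, 4.79, 4.10, 10.45 and 4.66 in recuperated arrays 1 to 6, against 4.47, 4.77, 4.15, 6.30, 6.38 and 8.85 in control arrays 1 to 6. Recuperated array 5 and control array 6 stood far above the rest, and the probe set exceeded the array median on 4 of 12 arrays. The log2 fold change was -0.19 (SE 1.03, 95% interval -2.40 to 2.02, exact permutation p = 0.844). It ran between -1.16 without recuperated array 5 and 0.42 without control array 6, and the ratio of linear means was 1.14 on the log2 scale, so its direction depended on single arrays. Choroid plexus genes, 19 of 22 measured, averaged -1.90 to -1.51 log2 units from the array median in recuperated arrays and -1.85 to -1.48 in control arrays, and only 3 exceeded the median on at least 6 arrays. This list stood at -1.57 on recuperated array 5 and -1.54 on control array 6, within its range on the other arrays of each group. Of the 19 genes, 2 and 6 had their highest level on these arrays, beside 11.9% and 9.42% of all probe sets. The part of choroid plexus tissue in the Ttr values was not tested.

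Dio2, the T3-producing deiodinase, showed no group difference beyond its spread. It read 7.29, 7.69, 8.04, 6.24, 8.43 and 7.17 in recuperated arrays 1 to 6, against 7.30, 8.05, 7.56, 7.73, 5.49 and 7.43 in control arrays 1 to 6. The 2 lowest values came from opposite groups, control array 5 and recuperated array 4, and the medians were 7.49 in recuperated and 7.50 in control arrays. The log2 fold change was 0.20 (SE 0.42, 95% interval -0.71 to 1.10, exact permutation p = 0.701). Its sign turned when recuperated array 5 or control array 5 was left out, with a lowest value of -0.16, and without recuperated array 4 it was 0.45 (SE 0.40). On control array 5, where Dio2 was lowest, the tanycyte list stood at its lowest level outside recuperated array 4, whereas Foxj1 was at its highest level of all arrays.

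Among the receptors, the brightest Thrb probe set (1394456_at) came closest to a difference. It read 8.62, 8.63, 8.68, 8.80, 8.66 and 8.83 in recuperated arrays 1 to 6, against 8.37, 8.34, 8.86, 8.52, 8.22 and 8.14 in control arrays 1 to 6. All 6 recuperated arrays lay above the control median of 8.36, 5 of 6 control arrays lay below every recuperated array, and control array 3 lay above them all. Thrb averaged 8.70 ± 0.09 in recuperated and 8.41 ± 0.26 in control arrays (SD, n = 6 each), 1.21-fold higher with a log2 fold change of 0.28 (SE 0.13, limma p = 0.05001, adjusted p = 0.999, two-sided exact permutation p = 0.0346). Of the 14 probe sets it was the only one with an exact p under 0.05, and 1.3-fold was not reached. The share of all probe sets with such an exact p is not given here. Without control array 3 the log2 fold change was 0.36 (exact permutation p = 0.00433, the smallest that 462 arrangements allow). That array was the only control above any recuperated array, so leaving it out separated the groups fully and fixed this p. Without recuperated array 4 the log2 fold change was 0.26 (exact permutation p = 0.0606). Leaving out 1 array at a time gave an exact p of up to 0.0693, and 4 of the 12 such values were under 0.05, those without recuperated array 1 or 2 or control array 3 or 4. Unlike the lining genes, Thrb was not low on recuperated array 4.

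The other Thrb probe sets, in order of brightness, gave log2 fold changes of 0.20 (SE 0.20), 0.25 (SE 0.23) and -0.23 (SE 0.27). The second (1387983_at) read 7.45, 8.45 and 8.79 (lowest, median and highest) in recuperated arrays, against 7.63, 8.15 and 8.51 in control arrays, with 5 of 6 recuperated arrays above the control median and recuperated array 3 below all controls. Leaving out that array, which ran against the group difference, gave 0.38 (exact permutation p = 0.0217), the only 1 of 12 such p values under 0.05. The third and the fourth were below the array median on all 12 arrays. Which receptor isoform each probe set reads was not settled, since the annotation names only the gene, and the mean over all 4 probe sets gave a log2 fold change of 0.12.

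Thra, the receptor gene that predominates in brain, gave no difference beyond the spread on any of its 3 probe sets over all arrays. The brightest (1367726_at) read 7.76, 8.19 and 9.07 (lowest, median and highest) in recuperated arrays, against 7.91, 8.49 and 8.97 in control arrays, a log2 fold change of -0.11 (SE 0.25, 95% interval -0.64 to 0.42, exact permutation p = 0.682). Recuperated arrays split, with arrays 1 and 3 at 9.07 and 9.02 above all controls and the other 4 at or below 8.25. The second (1370691_a_at) read 6.39, 6.55 and 7.13 in recuperated arrays, against 6.59, 6.72 and 6.96 in control arrays, with a log2 fold change of -0.14 (SE 0.14). Its highest value fell on recuperated array 4, without which the log2 fold change was -0.23 (SE 0.12, limma p = 0.0816, exact permutation p = 0.0433). That array ran against the group difference, and this exact p was the only 1 of 12 under 0.05 with each array left out in turn. The dimmest (1380518_s_at) lay between 1.72 and 2.16 on all arrays, with a log2 fold change of -0.03 (SE 0.11).

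**Figure D4:**
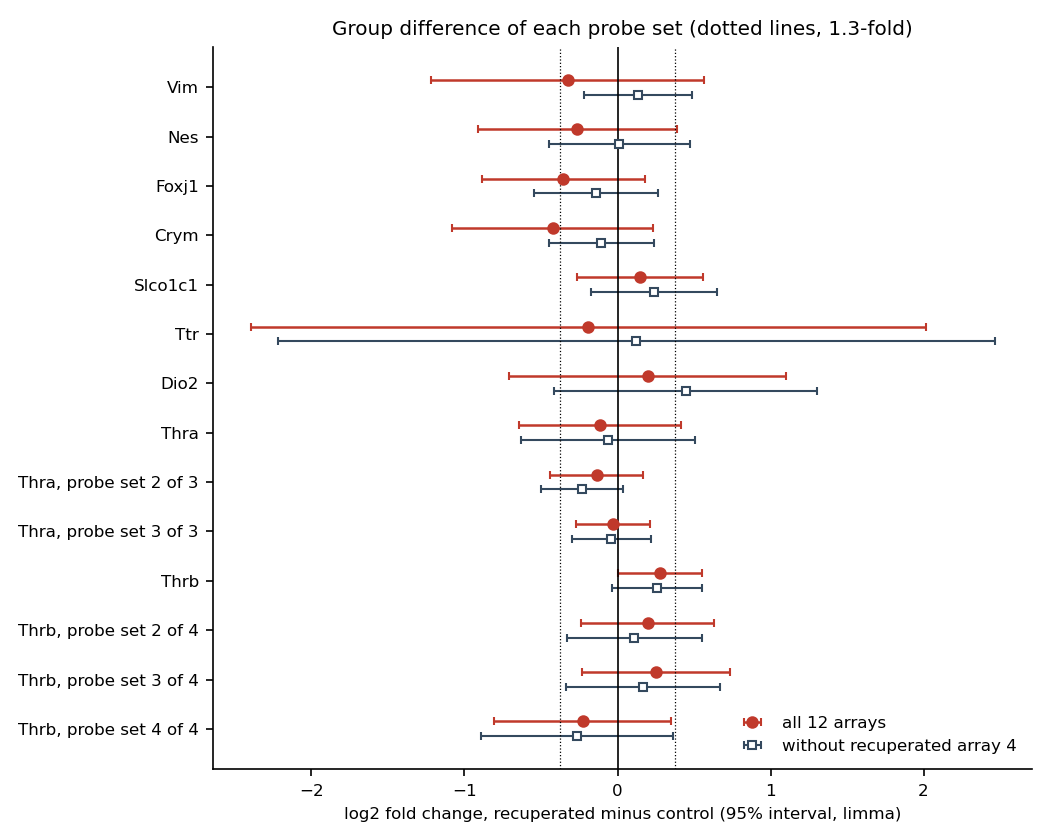
Log2 fold change (recuperated minus control) of the 14 probe sets with its 95% interval from limma, over all 12 arrays (filled circles) and without recuperated array 4 (open squares), the probe sets of Thra and Thrb in order of brightness. The intervals of Vim, Nes and Crym narrow when that array is left out, that of Ttr spans more than 4 log2 units, and the main Thrb interval starts at 0.

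To see how the members vary among themselves, their 36 pairs were correlated over the 11 arrays without recuperated array 4, which stands apart. After Benjamini-Hochberg adjustment over the 36 pairs, 0 had an adjusted permutation p under 0.05, and 2 had an unadjusted one for Pearson's r. Dio2 and Slco1c1, the enzyme and the carrier that act one after the other on T4, gave the highest correlation, with r = 0.63 (permutation p = 0.0369, adjusted 0.665) and Spearman's rho = 0.76 (permutation p = 0.00848, adjusted 0.305). With the 2 arrays farthest from the Dio2 median left out, r was 0.47. Vim and Nes gave r = 0.61 (permutation p = 0.0463, adjusted 0.665) and rho = 0.60 (permutation p = 0.0557, adjusted 0.668), with r = 0.56 after the same omission on Vim. Vim and Crym gave r = 0.56 (permutation p = 0.0739, adjusted 0.665) and rho = 0.70 (permutation p = 0.0203, adjusted 0.366). Adding recuperated array 4 gave r = 0.95 for that pair, which rested largely on this array. Foxj1 gave r = -0.37 against Vim and -0.33 against Nes (permutation p = 0.265 and 0.314, adjusted 0.808 each). With recuperated array 4 added, where these genes were all low, the sign turned, with r = 0.69 and 0.52 (permutation p = 0.073 and 0.1005).

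As a description, the genes whose pattern over the same 11 arrays was most like each member were ranked by Pearson's r among 9045 or 9046 candidate genes whose signal exceeded the array median on 6 arrays or more. The nearest gene was Nfix for Thra (r = 0.96), Cwc22 for Slco1c1 (0.93), Spetex2l1 for Thrb (0.91), Ddx31 for Crym (0.90) and Tfcp2 for Foxj1 (0.90). It was Bscl2 for Nes (0.90), Nfyc for Dio2 (0.88), Cog3 for Ttr (0.88) and Nelfb for Vim (0.88). The second in rank were Ndufs8 for Thra, Uxt for Slco1c1, Cep295 for Thrb, Ube2e3 for Crym, Prxl2c for Foxj1, Ran for Nes, Acy1 for Dio2, Ttyh3 for Ttr and Cep164 for Vim, at r between 0.85 and 0.93. No member was among the nearest 2 of another. All points share the amplification and the capture of their array, and the highest of so many correlations over 11 arrays is high by selection.

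Across the wider thyroid hormone pathway, 0 genes passed an adjusted p under 0.05 in limma, and the few that passed 1.3-fold with an unadjusted limma p were scattered over the lists. Over the 215 genes of all 15 lists, those of cell types included, 8 passed that threshold (3.72%, beside 2.47% of all probe sets). Of these, 1 was higher (beside 1.2% of all probe sets) and 7 were lower (beside 1.27%) in recuperated arrays. Listed genes were counted by their brightest probe set, whereas the shares beside them count every probe set. Slc7a8, Med1 and Ntf3 were in thyroid hormone lists, and the others of the 8 were in cell type lists. Of 11 measured genes for transport and binding, 4 had positive and 7 negative log2 fold changes, and 1 passed. This was Slc7a8, the light chain LAT2 of an amino acid exchanger that also carries T3. It read 5.94, 6.25 and 6.38 (lowest, median and highest) in recuperated arrays, against 6.08, 6.61 and 7.05 in control arrays. All 6 recuperated arrays lay below the control median, although controls 1 and 5 lay within the recuperated range, and the log2 fold change was -0.41 (SE 0.17, limma p = 0.0333, adjusted p = 0.999, exact permutation p = 0.0498).

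Slc3a2, the heavy chain that pairs with LAT1 and LAT2, read 8.51, 9.01 and 9.41 in recuperated arrays, against 9.11, 9.32 and 9.44 in control arrays. Its log2 fold change of -0.32 (SE 0.15, limma p = 0.0491, adjusted p = 0.999, exact permutation p = 0.0368) missed 1.3-fold, and its lowest value fell on recuperated array 4, without which it was -0.22 (limma p = 0.114). Slc7a5, the other light chain LAT1, gave 0.35 (SE 0.32). For Slc7a8 the value without recuperated array 4 was -0.43.

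Genes for deiodination and other hormone metabolism, 10 of 11 measured beside Dio2, had 5 positive and 5 negative log2 fold changes (7 and 3 without recuperated array 4), and 0 passed. Dio1, which removes iodine from either ring, gave -0.18 (SE 0.11, exact permutation p = 0.0584) and Dio3, which inactivates T3, gave -0.11 (SE 0.17), both at levels below the array median on all 12 arrays. Wsb1, part of the ubiquitin ligase that marks type 2 deiodinase for degradation, gave 0.18 (SE 0.15), and Sult1a1, a sulfotransferase, gave 0.31 (SE 0.27).

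Of 17 measured nuclear partners of the receptors, 7 were positive and 10 negative, and 1 passed. Med1, the Mediator subunit that binds ligand-bound nuclear receptors, averaged 7.67 ± 0.25 in recuperated and 7.07 ± 0.37 in control arrays (SD, n = 6 each). The log2 fold change was 0.58 (SE 0.18, limma p = 0.00512, adjusted p = 0.999, exact permutation p = 0.0108), and all 6 recuperated arrays were above the control median. The other 2 Med1 probe sets gave 0.18 (SE 0.22) and -0.30 (SE 0.23), so the probe sets of this gene disagreed. Ncoa2, a coactivator, gave -0.26 (SE 0.19) and Tbl1xr1, a part of the corepressor complex, gave 0.22 (SE 0.16).

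Genes known to respond to thyroid hormone in brain, 18 of 22 measured, had 9 positive and 9 negative log2 fold changes with a median of -0.01. Leaving out recuperated array 4 gave 4 positive and 14 negative values with a median of -0.11, beside a median of -0.03 over all probe sets. The share of positive values over all genes was not computed for that setting. The 1 that passed was Ntf3, neurotrophin 3, at -0.49 (SE 0.22, limma p = 0.0415, adjusted p = 0.999, exact permutation p = 0.0671), from 3.93 ± 0.39 in recuperated and 4.40 ± 0.42 in control arrays (SD, n = 6 each), levels below the array median on all 12 arrays. When recuperated array 4 was left out it gave -0.41 with an unadjusted limma p of 0.0906 and no longer passed. Cirbp, a cold-inducible RNA-binding protein, gave -0.19 (SE 0.12), with -0.21 and 0.05 on its other probe sets, and Camk4, a calcium-dependent kinase, gave 0.17 (SE 0.12). On recuperated array 4, 8 of the 18 had their highest level, beside 14.1% of all probe sets.

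Upstream in the axis, 0 of 9 measured genes passed, and the thyrotropin subunits varied widely within each group. Tshb, the specific subunit of thyrotropin, read 4.61, 7.17 and 8.70 (lowest, median and highest) in recuperated arrays, against 4.97, 7.09 and 9.94 in control arrays. Cga, the subunit that all glycoprotein hormones of the pituitary share, read 4.59, 8.20 and 9.44 in recuperated arrays, against 4.18, 7.28 and 10.54 in control arrays. Control arrays 2 and 4 were highest and recuperated array 4 and control array 1 lowest for both genes. Thyrotropin is made in the pituitary, including its pars tuberalis, a thin layer of cells under the median eminence, and the list for this tissue stood at -1.91 to -0.55 log2 units from the array median in recuperated arrays and -1.55 to -0.15 in control arrays. Trh, the hypothalamic releasing hormone, gave 0.17 (SE 0.28), Tshr, the thyrotropin receptor, gave -0.24 (SE 0.34), and Pcsk2, a prohormone convertase, gave -0.23 (SE 0.22).

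**Figure D5:**
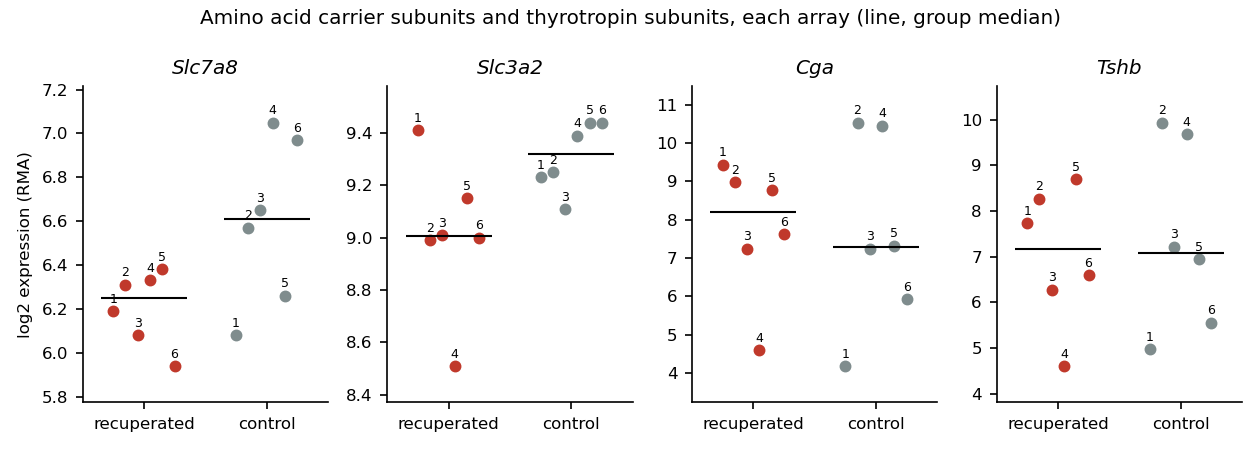
Log2 expression (RMA) of the amino acid carrier chains Slc7a8 and Slc3a2 and of the thyrotropin subunits Cga and Tshb, 1 numbered point per array, recuperated left and control right, with the group median as a line (n = 6 each) and a separate vertical axis per panel. Recuperated Slc7a8 values lie at or below 6.38, and Cga and Tshb spread over several log2 units within each group.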

How the data were processed

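The ARC of 6 recuperated and 6 control rats was measured, 1 animal per array. The authors deposited log2 expression values for 31099 probe sets, made with RMA. For this step Affymetrix Expression Console is named in the submitters' processing notes (version not given in the sources used here) and GeneSpring in the methods. Replicates were not pooled. Here 57 control probe sets were set aside and each array's median was subtracted for the fit, whereas levels are printed as deposited. RMA equalises the arrays, so a shift shared by most genes cannot be seen. Groups were compared with limma 3.58.1 in R 4.3.3 with Benjamini-Hochberg adjustment over 31042 probe sets, checked beforehand on simulated data. Single probe sets were also compared with a two-sided exact permutation test over 924 arrangements of the arrays, whose smallest p is 0.00216. Correlations used 100000 permutations. Tables were made with Python 3.11.15 (pandas 2.3.3, numpy 2.4.6, scipy 1.17.1) and figures with matplotlib 3.10.9.

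The platform annotation gave the gene names, with 1 symbol for 20826 probe sets, several for 436 and none for 9780, and the 14 described here all had a gene identifier in RefSeq. The members and the 15 gene lists were chosen with earlier results of these data known. Named genes were all members, the 3 genes of each list with the smallest limma p, any listed gene past 1.3-fold with p under 0.05, the 2 genes most like each member, and cell type markers beside a result. Dio3 lies outside this rule and was chosen after its values were seen. The alternatives were the methods' t-test, leaving out dim probe sets, no subtraction of medians, quantile normalization, weights for array quality, the tanycyte list level as a covariate, the animal number as a replicate block, linear means, the mean of a gene's probe sets, and each array left out in turn. Animal numbers do not pair the arrays. Arrays give no read depth, and their number limits the precision. The labels name separate animals, and the methods count litters as n.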

Additional observations from a re-analysis of the deposited data

Results flagged for a closer look

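Of 28 groups of 6 arrays (14 probe sets in each group), 8 held an array far from the others by Dixon's ratio, beside 8.92% of all probe sets in recuperated and 7.5% in control arrays, and chance flags about 1 in 20 groups. In 4 of them the array was recuperated array 4, the lowest of its group: Vim read 7.94 there and next 10.35, Crym 9.55 and next 11.10, Foxj1 6.75 and next 7.80, and Nes 4.86 and next 6.37. By mean level, the ependyma, tanycyte, ARC, astrocyte and pars tuberalis lists were also lowest on that array, as were those of hormone metabolism and of the upstream axis. The VMN and neuron lists, and those of nuclear partners and of genes that respond to thyroid hormone, were highest on it. The lists were not uniform, with 4 of 15 astrocyte and 2 of 10 metabolism genes lowest there, and 6 of 17 nuclear partners highest. Tshb and Cga are in both the pars tuberalis and the upstream axis list. Ttr on recuperated array 5 was the highest of its group at 10.45, the next being 5.34. Dio2 on control array 5 was the lowest of its group at 5.49, the next being 7.30. For Thrb, probe set 1387983_at was lowest on recuperated array 3 at 7.45, the next being 8.41, and probe set 1378457_at was lowest on control array 6 at 4.20, the next being 5.09.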

How the results depend on the processing

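Under every alternative run, 0 members passed an adjusted p under 0.05 in limma, and 0 passed 1.3-fold with an unadjusted p under 0.05. The median log2 fold change of the members, -0.19, ran from -0.36 to 0.12 when 1 array was left out, with 0.12 without recuperated array 4, -0.36 without control array 1 and 0.02 without recuperated array 2. Without any single other array, and under the other settings, it stayed negative, at -0.10 with array quality weights and -0.03 with the tanycyte list level as a covariate, which turned Vim to 0.06. The count of listed genes past 1.3-fold, 8, was 4 with the filter on dim probe sets, which tests fewer genes, and 5 to 10 when 1 array was left out, with 5 without recuperated array 6. Of 278 alternatives for single probe sets, 264 kept the sign and 14 turned it, none of these past the threshold, and 6 brought a Thrb probe set to an unadjusted p under 0.05. For the main Thrb probe set, whose limma p was 0.05001, these gave 0.0395 without subtraction of medians, 0.0382 with quantile normalization, 0.0457 with the filter, 0.0282 with the methods' t-test and 0.00773 without control array 3, p reached 0.108 without control array 6, and the mean of all Thrb probe sets gave 0.12 with an unadjusted limma p of 0.418. Over all probe sets, 371 were higher and 395 lower at 1.3-fold, against 434 and 302 without subtraction of medians and 447 and 313 with quantile normalization. The animal number as a replicate block left the members' median at -0.19, gave Thrb an unadjusted limma p of 0.0979 and changed no call of a member probe set. Over all probe sets it gave 452 higher and 411 lower at 1.3-fold, and it was not run for the listed genes. Deviations of same-numbered arrays correlated at -0.16 to 0.08, and recuperated array 6 alone matched its own number best. No correlation between members passed an adjusted p with all 12 arrays, without subtraction of medians or with group means removed, where 5, 1 and 2 of 36 had an unadjusted p under 0.05. With 6 arrays a group, the 95% intervals of all 9 main probe sets reach past 1.3-fold in at least 1 direction, and signal below the array median (Ttr on most arrays, 2 Thrb and 1 Thra probe sets) gives little information.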

Other observations

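Among the lists of other cell types, choroid plexus had 3 of 19 measured genes lower in recuperated arrays, beside 1.27% of all probe sets. The threshold was 1.3-fold with an unadjusted limma p under 0.05, and 0 of the 19 passed an adjusted p, beside 0% of all probe sets. Prlr, the prolactin receptor, which the ARC list also holds, averaged 7.34 ± 0.27 in recuperated and 7.80 ± 0.24 in control arrays (SD, n = 6 each), with a log2 fold change of -0.48 (SE 0.16, exact permutation p = 0.0173). Its other 2 probe sets gave -0.56 (SE 0.15) and -0.21 (SE 0.17). Slc4a2, an anion exchanger, gave -0.59 (SE 0.20, exact permutation p = 0.0216) and Cldn1, a tight junction protein at levels below the array median, gave -0.57 (SE 0.18, exact permutation p = 0.0152), beside -0.07 (SE 0.17) and -0.06 (SE 0.20) on its other 2 probe sets. Without recuperated array 4 these were -0.42, -0.51 and -0.51. Each of the 3, named because it passed that threshold, had all 6 recuperated arrays below the control median. How many of all probe sets did so is not given here. Their highest level was on control array 6, where Ttr was also high. Of the 19 genes, 6 were highest there, beside 9.42% of all probe sets. Among these 6, Folr1, Kcnj13, Cldn1 and Tmem72 exceeded the array median on no array.

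Cldn5, a tight junction protein of brain endothelium, averaged 7.84 ± 0.22 in recuperated and 8.15 ± 0.20 in control arrays (SD, n = 6 each), a log2 fold change of -0.33 (SE 0.14, exact permutation p = 0.013) that missed 1.3-fold, and Flt1 and Abcb1a of the same list gave 0.31 (SE 0.21) and 0.36 (SE 0.28), although the other 2 Flt1 probe sets gave -0.06 and -0.22. Lhb, the luteinising hormone subunit in the pars tuberalis list, gave -0.47 (SE 0.21), and without recuperated array 4 it gave -0.38 with an unadjusted limma p of 0.0948 and no longer passed the threshold. Tbx19 gave -0.51 (SE 0.27) and Fshb -0.16 (SE 0.18), with 0.06 on the other Fshb probe set. In the ARC list, Slc6a3, the dopamine transporter, gave -0.71 (SE 0.32) and -0.40 without recuperated array 4, where its unadjusted limma p was 0.0749 and it no longer passed. Ddc, which makes dopamine from its precursor, gave -0.37 (SE 0.20) on the brighter probe set and 0.23 (SE 0.24) on the other. Slc32a1, the vesicular GABA transporter, gave -0.62 (SE 0.30, exact permutation p = 0.0173) and -0.29 without that array, whereas Elavl4 and Tubb3 of the neuron list gave -0.19 (SE 0.14) and -0.14 (SE 0.13), with 0.07 on the other Tubb3 probe set. Among astrocyte genes, Mlc1, Slc1a3 and Gjb6 gave -0.27 (SE 0.17), -0.17 (SE 0.12) and 0.17 (SE 0.12). In the meningeal list, Foxc1, Slc13a4 and Lum gave -0.19 (SE 0.15), 0.55 (SE 0.46) and -0.26 (SE 0.28), and in the VMN list Dlk1, Nkx2-2 and Vgll2 gave -0.37 (SE 0.29), 0.21 (SE 0.31) and 0.09 (SE 0.16). None of these reached an adjusted p under 0.05 in limma.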
